A study of Homo sapiens with 16 samples.

Results

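Neuroblastoma cells of the lines IMR5-75 and Be(2)-C were compared for how their RNA changed after DAC. The measure was the response difference of each gene, which is the log2 change from DMSO to DAC in IMR5-75 minus that in Be(2)-C. It was computed from the 8 DMSO and DAC libraries of the 16 in the series, 2 in each of the 4 groups, for 15967 genes with enough counts out of 23459 in the deposited table. Genes were called at an adjusted p under 0.05 (edgeR's quasi-likelihood test, Benjamini-Hochberg adjustment), which gave 988 of 15967 genes. The groups were Be(2)-C in DMSO, the solvent, Be(2)-C in DAC (1 µM for 72 h), IMR5-75 in DMSO and IMR5-75 in DAC at the same dose and time. The other 8 libraries, of cells given EPZ-6438 (1 µM for 96 h) with or without DAC, served as a reading of the same quantities in separate libraries. EPZ-6438 blocks EZH2, an enzyme of the Polycomb system that methylates histone tails. Each side of the comparison is a single established line grown in serum medium, so that what belongs to a line cannot be told apart from what belongs to its tumour of origin or its culture. The labels do not state whether the replicates were grown as separate cultures. The p-values therefore cover the spread between replicate libraries only, and that spread may be technical.

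DAC is not spelled out in the labels and usually stands for decitabine, a nucleoside that is built into new DNA and traps the DNA methyltransferases there. Methylation at CG sites is then lost as cells divide, and genes that were silenced by a methylated promoter can become active again. Trapped methyltransferases also damage DNA, and p53, a transcription factor that responds to such damage, raises genes that halt the cell cycle or start cell death. Neuroblastoma arises from noradrenergic precursors of the sympathetic nervous system, and lines differ in how much of that programme they keep.

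Library totals of the 16 libraries ran from 9539557 to 14032155 counts, and those of the 8 DMSO and DAC libraries from 11076713 to 14032155. Levels are given as counts scaled to library size (CPM), replicate 1 before replicate 2. A count of 0 allows up to 0.221 and 0.252 CPM in the IMR5-75 DMSO libraries, by counting error only. HAND2, a transcription factor of the noradrenergic lineage, was at 806 and 793 CPM in Be(2)-C DMSO and at 452 and 540 CPM in IMR5-75 DMSO. TH, the first enzyme of catecholamine synthesis, was at 53.2 and 58.2 CPM in Be(2)-C DMSO but at 1.18 and 0 CPM in IMR5-75 DMSO, so that this marker was nearly absent from IMR5-75. Of the haematopoietic markers, CD3E and HBB were at 0.0906 CPM or less in each DMSO library. LCP1, an actin-bundling protein gene of leukocytes, was at 38.7 and 35.9 CPM in Be(2)-C DMSO and at 0.59 and 0.252 CPM in IMR5-75 DMSO, and CD14, a monocyte receptor gene, at 0.634 and 1.1 CPM and at 0.0737 and 0.168 CPM. IMR5-75 DMSO 1 held more counts of genes that were near 0 in this line than IMR5-75 DMSO 2. Over 337 genes under 0.5 CPM in IMR5-75 DMSO and at 5 CPM or more in Be(2)-C DMSO, the summed level was 83.3 CPM in IMR5-75 DMSO 1 and 35.3 CPM in IMR5-75 DMSO 2. The cause was not tested, and values are given without this library where its loss ends a call. For genes given with a response difference, they are also given where that loss leaves no count or moves a value by over 1.5 times. HIST1H1B, HIST1H1D and CHFR are given without a response difference. All their counts in IMR5-75 DMSO were in this library.

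DAC changed many more genes in IMR5-75 than in Be(2)-C, and the genes that set the lines apart were mostly genes that rose in IMR5-75 and did not pass the test in Be(2)-C. Of the 15967 genes tested, 988 (6.19%) had a response that differed by line. The response was more positive in IMR5-75 for 819 of them (5.13% of the genes tested) and more positive in Be(2)-C for 169 (1.06%). In IMR5-75, 5374 genes (33.7%) were called against DMSO, of which 3178 rose (19.9%) and 2196 fell (13.8%). In Be(2)-C, 1069 genes (6.7%) were called, of which 595 rose (3.73%) and 474 fell (2.97%). The genes that moved in Be(2)-C mostly moved in IMR5-75 too, since 402 genes rose in both lines (67.6% of those that rose in Be(2)-C and 12.6% of those that rose in IMR5-75). Likewise 340 genes fell in both (71.7% and 15.5%). The median size of the change over all tested genes was 0.34 (log2) in IMR5-75 and 0.23 in Be(2)-C, while the median response difference was -0.01. Across the tested genes, the 2 responses had a Pearson correlation of 0.46, given as a description since genes of the same libraries are not independent. Without IMR5-75 DMSO 1, 783 genes were called, 699 of them more positive in IMR5-75 and 84 more positive in Be(2)-C.

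Of the 819 genes with the more positive response in IMR5-75, 709 rose in IMR5-75 with no call in Be(2)-C, 55 rose in both lines, and 33 rose in IMR5-75 and fell in Be(2)-C. A further 14 fell in Be(2)-C with no call in IMR5-75, and 8 had no call in either line. Of the 169 genes with the more positive response in Be(2)-C, 109 fell in IMR5-75 with no call in Be(2)-C, 35 rose in Be(2)-C with no call in IMR5-75, and 11 rose in Be(2)-C and fell in IMR5-75. For all 988 called genes, each DAC-to-DMSO pair of libraries of 1 line changed more than each pair of the other line. The same held for 5377 of all tested genes (33.7%). The count of genes more positive in Be(2)-C rested on single libraries, as it was 59 without Be(2)-C DMSO 1, 78 without Be(2)-C DMSO 2, 99 without Be(2)-C DAC 1 and 105 without IMR5-75 DAC 1. In bulk RNA, a low level in a few cells at full strength and in many cells at low strength cannot be told apart.

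**Figure D1:**
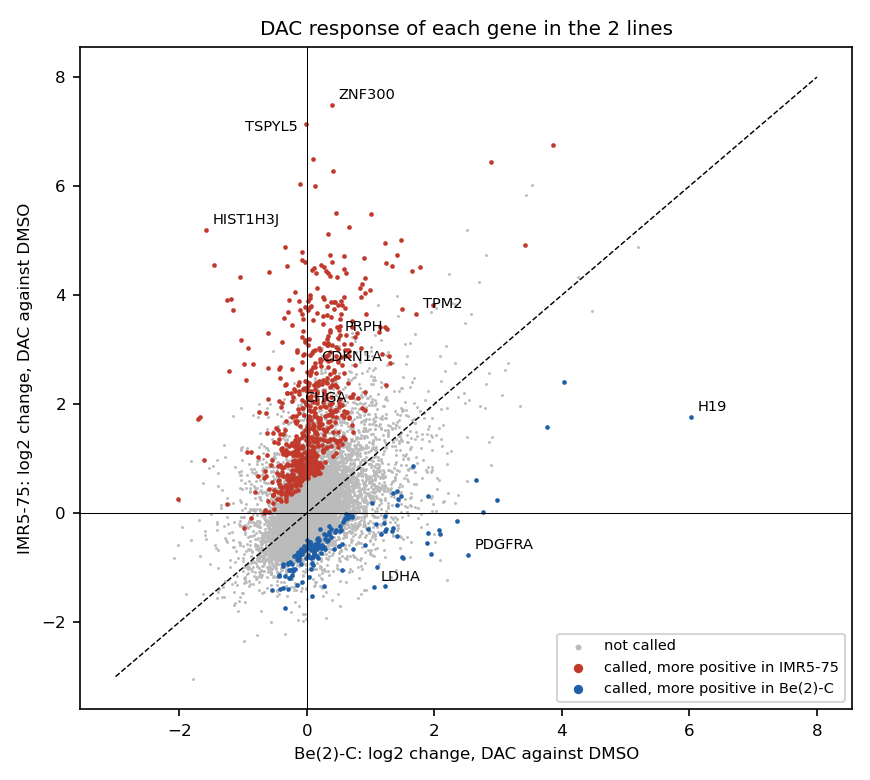
Log2 change from DMSO to DAC in Be(2)-C (x axis) and IMR5-75 (y axis) for the 14283 tested genes with more than 3 counts in each of the 4 groups, 1 point per gene. Red points are the 672 called genes with the more positive response in IMR5-75, blue points the 160 with the more positive response in Be(2)-C, and the dashed line marks equal responses. The red points form a column near 0 on the x axis that reaches above 7 on the y axis for ZNF300 and TSPYL5, while H19 lies at 6.03 in Be(2)-C and 1.77 in IMR5-75.

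The promoters of 5 named genes are shown because they cover the kinds of gene the comparison turned on. ZNF300, TMEM185B and IMPACT were near 0 in IMR5-75 DMSO and rose there after DAC, CDKN1A was already present in both lines, and TMPRSS15 was near 0 in Be(2)-C DMSO. Each line gives the 250 bases before the RefSeq gene start in GRCh38.p14, 5′ to 3′ on the strand of the gene, with every CG in capitals, the letters at which DNA methyltransferases act. CG reads the same on both strands. Of the 27305 promoters in the RefSeq table, 93.6% held at least 1 CG in this window, 51.9% held at least 10 and 21.3% at least 25, with a median of 11. A CG in these letters says nothing of whether it was methylated, which was not measured here.
ZNF300 (chr5:150904981-150905230, - strand, 10 CG): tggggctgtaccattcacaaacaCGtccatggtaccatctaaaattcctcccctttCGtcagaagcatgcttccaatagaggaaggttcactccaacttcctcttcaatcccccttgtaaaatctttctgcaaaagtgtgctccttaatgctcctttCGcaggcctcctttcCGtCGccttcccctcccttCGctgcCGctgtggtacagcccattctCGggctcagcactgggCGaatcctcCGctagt
TMEM185B (chr2:120223401-120223650, - strand, 33 CG): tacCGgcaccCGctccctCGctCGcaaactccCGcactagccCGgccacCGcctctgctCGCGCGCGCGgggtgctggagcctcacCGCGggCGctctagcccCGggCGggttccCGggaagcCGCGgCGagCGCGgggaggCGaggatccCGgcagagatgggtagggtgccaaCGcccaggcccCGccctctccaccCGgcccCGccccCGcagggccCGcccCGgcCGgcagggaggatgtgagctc
IMPACT (chr18:24426420-24426669, + strand, 25 CG): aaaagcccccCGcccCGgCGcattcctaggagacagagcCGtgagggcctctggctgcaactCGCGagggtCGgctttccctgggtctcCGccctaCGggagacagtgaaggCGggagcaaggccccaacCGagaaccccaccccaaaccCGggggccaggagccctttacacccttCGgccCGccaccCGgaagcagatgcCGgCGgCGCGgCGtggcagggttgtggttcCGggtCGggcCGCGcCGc
CDKN1A (chr6:36678464-36678713, + strand, 27 CG): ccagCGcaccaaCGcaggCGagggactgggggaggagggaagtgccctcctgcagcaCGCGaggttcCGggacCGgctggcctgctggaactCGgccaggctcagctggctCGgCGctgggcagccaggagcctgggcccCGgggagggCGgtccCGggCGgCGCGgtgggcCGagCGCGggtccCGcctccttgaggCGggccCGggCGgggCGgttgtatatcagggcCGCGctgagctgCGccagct
TMPRSS15 (chr21:18403786-18404035, - strand, 0 CG): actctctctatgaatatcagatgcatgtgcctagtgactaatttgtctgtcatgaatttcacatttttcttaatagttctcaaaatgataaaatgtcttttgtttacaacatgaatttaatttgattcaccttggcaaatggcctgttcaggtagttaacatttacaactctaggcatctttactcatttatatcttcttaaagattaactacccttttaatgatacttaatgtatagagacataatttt
TMEM185B held 33 CG, CDKN1A 27, IMPACT 25, ZNF300 10 and TMPRSS15 0. These 5 genes were picked as examples and do not stand for the called genes. The tested genes that matched a promoter by symbol had a median of 26 CG, above the median of 11 of all promoters in the RefSeq table. A comparison of CG number over the called genes is void and not given, since fewer than 80% of the tested genes (74.7%) matched a promoter by symbol.

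Most of the genes with the largest response difference toward IMR5-75, PASD1 apart, were expressed in Be(2)-C with or without DAC and nearly without counts in IMR5-75 until DAC was given. ZNF300, a zinc finger gene, stood at 103 and 107 CPM in Be(2)-C DMSO, at 146 and 131 CPM in Be(2)-C DAC, at 0.295 and 0 CPM in IMR5-75 DMSO and at 26.1 and 34.1 CPM in IMR5-75 DAC. Its response difference was 7.09 ± 0.48 (log2 ± SE, n = 2 libraries per group, adjusted p = 2.14e-09 by edgeR). Both IMR5-75 DAC libraries lay far above both IMR5-75 DMSO libraries and below all 4 Be(2)-C libraries. TSPYL5, a testis-specific-protein-like gene, moved in the same way, from 0.295 and 0 CPM to 24.6 and 22.2 CPM in IMR5-75 against 209 and 222 CPM and then 228 and 200 CPM in Be(2)-C (7.14 ± 0.35, adjusted p = 2.91e-11). TMEM185B, which encodes a membrane protein, went from 0.516 and 0 CPM to 17.2 and 20.2 CPM in IMR5-75 and stayed between 31.1 and 39.3 CPM in Be(2)-C (6.14 ± 0.44, adjusted p = 4.52e-09). STOM, which encodes the membrane protein stomatin, went from 0.295 and 0 CPM to 10.1 and 11.5 CPM in IMR5-75 and lay between 88.2 and 108 CPM in Be(2)-C (5.88 ± 0.41, adjusted p = 2.72e-09). All 4 genes ended below Be(2)-C. ZNF559, also a zinc finger gene, went from 0.295 and 0.0841 CPM to 15.4 and 16.7 CPM in IMR5-75, where Be(2)-C held 29.7 and 35.4 CPM in DMSO and 43.5 and 43 CPM in DAC (5.87 ± 0.41, adjusted p = 2.72e-09). The size of several of these differences rested on a handful of counts in IMR5-75 DMSO 1. Without that library no count was left in IMR5-75 DMSO, and against 3 counts the response difference was at least 6.50 for ZNF300, 6.55 for TSPYL5, 6.32 for TMEM185B and 5.29 for STOM.

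IMPACT, TDRD1 and CHFR had 3 or fewer counts over the IMR5-75 DMSO group, so that no fitted difference is given for them. IMPACT, which encodes a regulator of translation under amino acid shortage, was at 0 and 0.0841 CPM in IMR5-75 DMSO and at 18.5 and 23.7 CPM after DAC, where Be(2)-C had 38.1 and 43 CPM and then 51.4 and 52.6 CPM (adjusted p = 1.81e-10). TDRD1, a Tudor-domain gene of the germline piRNA pathway, was at 157 and 160 CPM in Be(2)-C DMSO and 175 and 149 CPM in Be(2)-C DAC. In IMR5-75 it went from 0.0737 and 0.168 CPM to 16.1 and 21 CPM (adjusted p = 1.81e-10). TDRD1 was therefore a germline gene already expressed in Be(2)-C. CHFR, a mitotic checkpoint gene named here after its values were seen, went from 0.147 and 0 CPM to 15.3 and 15 CPM in IMR5-75, and Be(2)-C held 42.9 to 49.7 CPM throughout (adjusted p = 1.81e-10). Zinc finger genes as a class, also picked out after their values were seen, had 64 of 506 tested members (12.6%) more positive in IMR5-75 and 7 (1.38%) more positive in Be(2)-C, with a median difference of -0.04. Over all tested genes these shares were 5.13% and 1.06%. All 64 were lower in IMR5-75 in DMSO, while 196 of the 506 were lower there. Of all genes called as more positive in IMR5-75, 79.6% were lower there in DMSO.

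**Figure D2:**
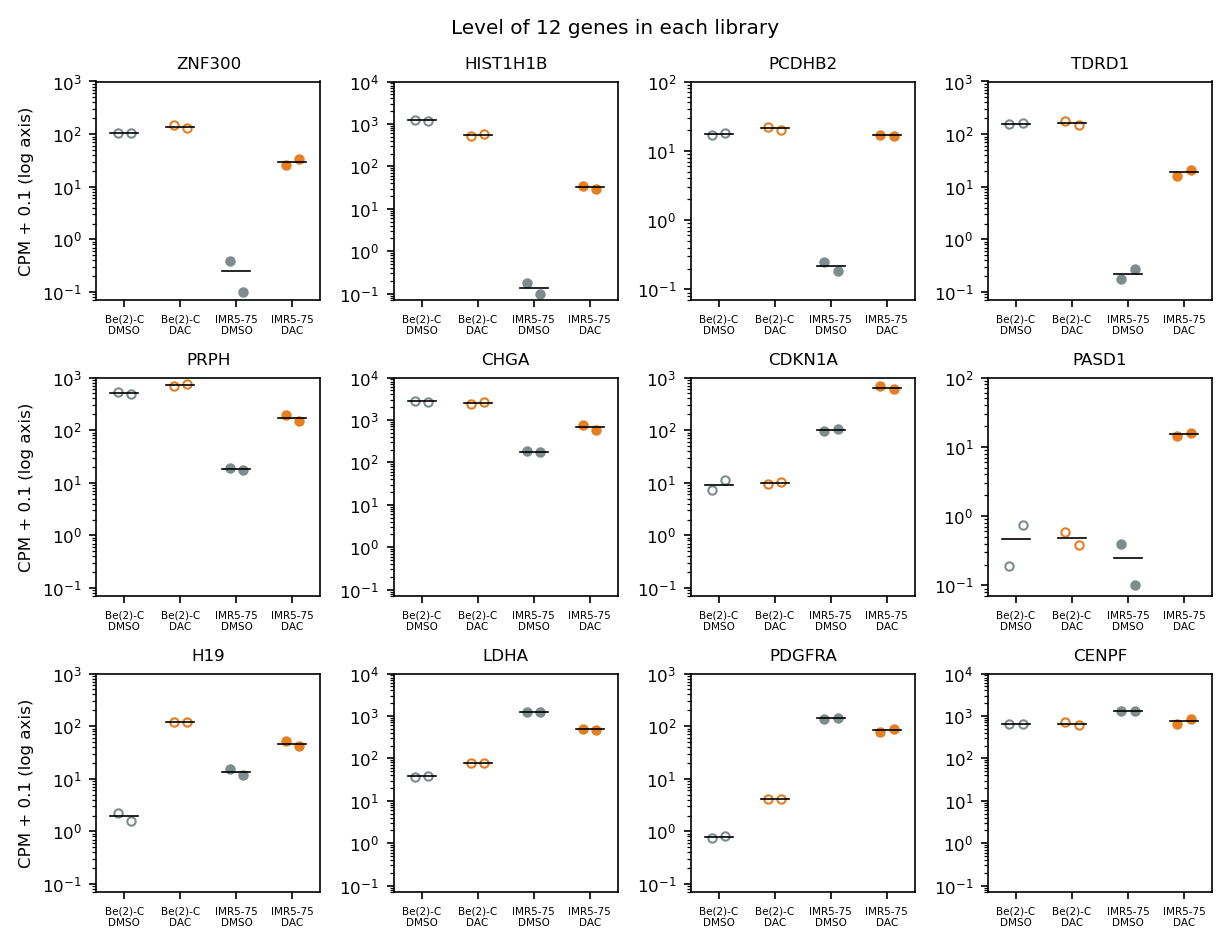
Level of 12 genes in each library as CPM + 0.1 on a log axis, with open points for Be(2)-C, filled points for IMR5-75, grey for DMSO and orange for DAC. Replicate 1 is on the left of each pair and the black line is the mean of 2 libraries. ZNF300, HIST1H1B, PCDHB2 and TDRD1 lay near the bottom of the axis in IMR5-75 DMSO only, H19 rose in both lines but further in Be(2)-C, and LDHA fell in IMR5-75 and rose in Be(2)-C.

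The question of how the response difference relates to the DMSO level was answered by counts. Of the 819 genes more positive in IMR5-75, 652 (79.6%) were lower in IMR5-75 than in Be(2)-C in DMSO, 68 (8.3%) were higher and 99 (12.1%) had no call. Over all tested genes, 63.2% differed between the lines in DMSO, 31.2% being lower and 32% higher in IMR5-75. Of the 169 genes more positive in Be(2)-C, 113 (66.9%) were higher in IMR5-75 in DMSO, which is to say lower in Be(2)-C, and 32 (18.9%) were lower. For 765 of the 988 genes (77.4%) the response thus ran against the difference between the lines in DMSO, and for 100 (10.1%) it ran with it. The latter count was between 42 and 64 without Be(2)-C DMSO 1, Be(2)-C DMSO 2, IMR5-75 DMSO 1 or IMR5-75 DMSO 2. The response difference and the DMSO difference share the DMSO libraries, so a chance low DMSO value enters both with opposite sign. The EPZ-6438 libraries without DAC share none of them, and 63.2% of the tested genes differed between the lines there, 31.4% lower and 31.8% higher in IMR5-75. By these libraries, 624 of the 819 genes (76.2%) were lower in IMR5-75, 104 of the 169 (61.5%) were higher, and the response ran against the line difference for 728 of the 988 (73.7%) and with it for 125 (12.7%).

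**Figure D3:**
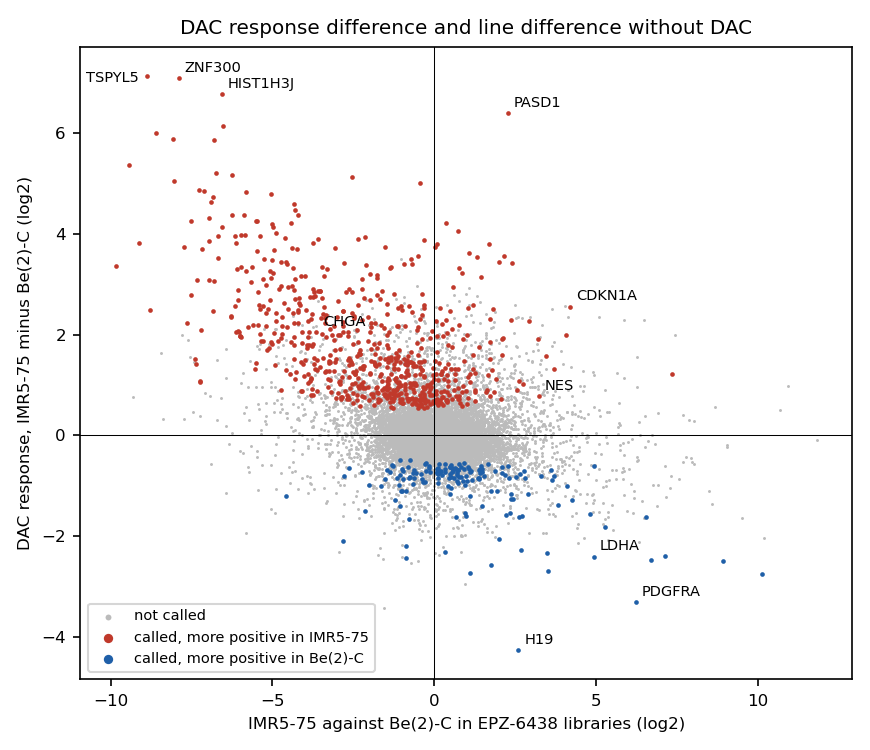
Response difference between the lines (y axis, log2) against the difference of IMR5-75 from Be(2)-C in the EPZ-6438 libraries without DAC (x axis, log2), which share no library with the y axis, for 14283 genes with more than 3 counts in each DMSO and DAC group. Red and blue points are called genes as in the plot of the 2 responses. Most red points lie left of 0, most blue points right of it, and CDKN1A, NES and PASD1 are red points on the right. The place of PASD1 on the x axis rests on means of 0 CPM in Be(2)-C and 0.0393 CPM in IMR5-75 with EPZ-6438. Its line difference there was not called (adjusted p = 0.436 by edgeR).

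For genes whose response ran against the DMSO difference, a gap that narrowed or turned after DAC follows from how they were chosen. The counts below give how many of these gaps were still called after DAC. The 652 genes lower in IMR5-75 in DMSO had a median level of 1.32 CPM in IMR5-75 DMSO and 7.53 CPM in IMR5-75 DAC, against 26.1 and 28.6 CPM in Be(2)-C. After DAC, 468 of them (71.8%) were still lower in IMR5-75, 126 (19.3%) had no call and 58 (8.9%) were higher. Over all tested genes, 66.7% differed between the lines in DAC, 32.2% lower and 34.5% higher in IMR5-75, against 63.2% that differed in DMSO. The 113 genes in the opposite position went from a median of 77.1 to 56.2 CPM in IMR5-75 and from 16.4 to 21.9 CPM in Be(2)-C, and 73 of them (64.6%) were still higher in IMR5-75 after DAC.

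The 2 lines did not mirror each other. Of the 337 genes under 0.5 CPM in IMR5-75 DMSO and at 5 CPM or more in Be(2)-C DMSO, 209 (62%) rose in IMR5-75 and 168 (49.9%) were called as more positive there. Of the 296 genes under 0.5 CPM in Be(2)-C DMSO and at 5 CPM or more in IMR5-75 DMSO, 19 (6.42%) rose in Be(2)-C and 6 (2.03%) were called as more positive there. Over all tested genes, 19.9% rose in IMR5-75 and 3.73% in Be(2)-C, and 5.13% and 1.06% were called as more positive there. The contrast thus includes the wider response of IMR5-75, where 85 of the 296 genes (28.7%) rose as well. Classes set by the EPZ-6438 libraries in place of DMSO gave 127 of 260 genes (48.8%) called as more positive in IMR5-75 and 4 of 234 genes (1.71%) in Be(2)-C. Genes under 0.5 CPM in both lines in DMSO numbered 850, of which 498 (58.6%) rose in IMR5-75 and 108 (12.7%) in Be(2)-C, and 24 (2.82%) were called as more positive in IMR5-75. Genes near 0 in both DMSO groups could pass the filter on low counts only through a treated group, so the shares of them that rose are partly set by the filter and are given as a description. Without IMR5-75 DMSO 1, and with the class set by the DMSO library left, 217 of 377 genes (57.6%) rose in IMR5-75 and 175 (46.4%) were called as more positive there. By level in IMR5-75 DMSO alone, the share called as more positive in IMR5-75 was 14.2% of genes under 0.5 CPM, 6.83% from 0.5 to 5 CPM, 4.15% from 5 to 50 CPM and 1.42% at 50 CPM or more. The same DMSO libraries enter the response difference, and genes near 0 in them passed the filter through other groups. These shares are therefore partly fixed in advance. By level in the IMR5-75 EPZ-6438 libraries without DAC, which do not enter the response difference, the shares were 14.4%, 7.29%, 4.27% and 1.8%. The counts left in genes near 0 in both lines limit what could be called there, as a difference needs counts in at least 1 line.

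Gene lists are described by the number of called members in each direction and the median response difference, beside 5.13% and 1.06% of all tested genes called in the 2 directions and a median of -0.01. Of all genes called as more positive in IMR5-75, 79.6% were lower there in DMSO, which is the share to set beside such counts below. The plot of list members shows 10 of the 29 lists. Clustered protocadherins, cell adhesion proteins of neurons encoded in 3 neighbouring arrays of similar copies, had 36 of 55 tested members more positive in IMR5-75 and 0 more positive in Be(2)-C, with a median difference of 2.79. Of the 55, 53 rose in IMR5-75 and 12 in Be(2)-C, and 52 were lower in IMR5-75 in DMSO. PCDHB2 was at 0.147 and 0.0841 CPM in IMR5-75 DMSO and at 17.1 and 16.5 CPM after DAC, close to the 16.6 and 17.7 CPM of Be(2)-C DMSO and below the 22 and 20 CPM of Be(2)-C DAC (adjusted p = 1.81e-10). PCDHB15 went from 0.59 and 0.336 CPM to 9.84 and 9.83 CPM in IMR5-75 and from 14.3 and 15.3 CPM to 20.4 and 17.8 CPM in Be(2)-C (adjusted p = 5.97e-08). Copies of this family can exchange reads, so the value of a single member is uncertain. Leaving out single libraries gave 26 to 34 called members.

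Replication-dependent histone genes, which are expressed as DNA is copied and lie in large clusters, split into 2 sets. In Be(2)-C, 52 of 63 tested members fell after DAC, and in IMR5-75 36 fell but 23 rose. The 19 called members were all more positive in IMR5-75, and all 19 were lower in IMR5-75 in DMSO, while the list median was -0.06. Of all 63, 31 were lower in IMR5-75 in DMSO. HIST1H1B, a linker histone gene, was at 1244 and 1182 CPM in Be(2)-C DMSO and at 508 and 584 CPM in Be(2)-C DAC. In IMR5-75 it had 0.0737 and 0 CPM in DMSO and 34.1 and 29.6 CPM in DAC (adjusted p = 2.91e-11), so the levels of the lines moved toward each other from both sides. HIST1H1D, also a linker histone gene, went from 0.147 and 0 CPM to 17.8 and 15.8 CPM in IMR5-75 and from 721 and 690 CPM to 322 and 373 CPM in Be(2)-C (adjusted p = 4.37e-11). HIST1H3J, a core histone gene, rose from 0.958 and 0.673 CPM to 34.4 and 26.7 CPM in IMR5-75 and fell from 291 and 273 CPM to 90.6 and 98.5 CPM in Be(2)-C (difference 6.77 ± 0.36, adjusted p = 6e-11). HIST1H4I and HIST1H2BM, core histone genes as well, also rose in IMR5-75 and fell in Be(2)-C. HIST1H4I went from 0.369 and 0 CPM to 5.59 and 3.98 CPM in IMR5-75 and from 381 and 324 CPM to 120 and 138 CPM in Be(2)-C (6.0 ± 0.49, adjusted p = 3.18e-08, and at least 5.70 without IMR5-75 DMSO 1, which left no count). HIST1H2BM went from 0.516 and 0.505 CPM to 8.36 and 7.33 CPM in IMR5-75 and from 141 and 120 CPM to 53.1 and 57.1 CPM in Be(2)-C (5.16 ± 0.61, adjusted p = 5.58e-06). Even after DAC, each of these histone genes stood below Be(2)-C in both IMR5-75 DAC libraries.

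Genes of mature neurons were more positive in IMR5-75 for 15 of 50 tested members and more positive in Be(2)-C for 1, with a median of 0.56. All 15 were lower in IMR5-75 in DMSO, as were 33 of all 50. The count of 1 in the other direction was 0 without any single library other than IMR5-75 DAC 1. PRPH, which encodes the intermediate filament peripherin of peripheral neurons, stood at 19.2 and 17.7 CPM in IMR5-75 DMSO and at 192 and 152 CPM in IMR5-75 DAC, against 523 and 496 CPM and then 684 and 744 CPM in Be(2)-C (difference 2.73 ± 0.22, adjusted p = 3.57e-08). SCG2, which encodes a secretory granule protein, went from 6.41 and 5.22 CPM to 49.1 and 58.1 CPM in IMR5-75 and from 625 and 672 CPM to 735 and 878 CPM in Be(2)-C (2.88 ± 0.24, adjusted p = 3.18e-08). In both genes every IMR5-75 DAC library exceeded every IMR5-75 DMSO library and stayed below Be(2)-C. Noradrenergic identity genes had 11 of 36 members more positive in IMR5-75, all 11 lower there in DMSO, and 2 more positive in Be(2)-C, with a median of 0.25. Of all 36, 25 were lower in IMR5-75 in DMSO. DBH, the enzyme that makes noradrenaline, went from 1.84 and 1.18 CPM to 15.3 and 11.9 CPM in IMR5-75 and from 163 and 172 CPM to 128 and 128 CPM in Be(2)-C (3.53 ± 0.34, adjusted p = 3.26e-07). CHGA, which encodes the granule protein chromogranin A, went from 180 and 175 CPM to 755 and 589 CPM in IMR5-75 and from 2811 and 2716 CPM to 2422 and 2595 CPM in Be(2)-C (2.06 ± 0.17, adjusted p = 5.29e-08). The count of 2 more positive in Be(2)-C was 0 without Be(2)-C DMSO 1, Be(2)-C DMSO 2, Be(2)-C DAC 1 or IMR5-75 DMSO 1, and 1 without IMR5-75 DAC 1 or IMR5-75 DAC 2. TH, in contrast, had 0.142 and 0 CPM in IMR5-75 DAC and 70.9 and 77.1 CPM in Be(2)-C DAC and was not called (adjusted p = 0.149).

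**Figure D4:**
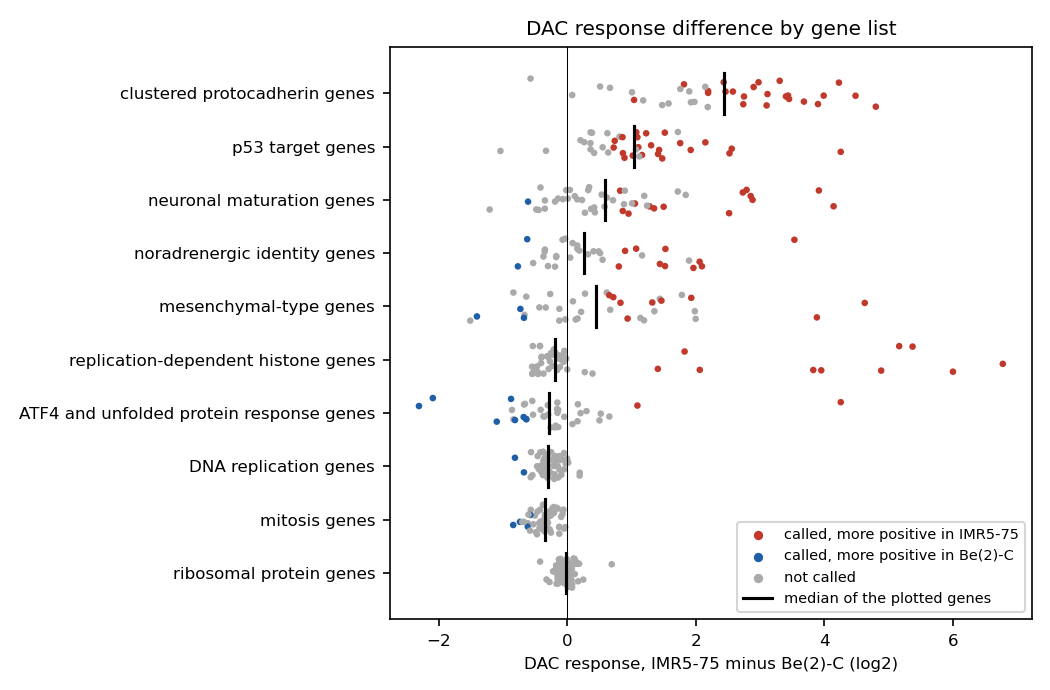
Response difference (x axis, log2) of the members of 10 lists with more than 3 counts in each DMSO and DAC group, 1 point per gene, with vertical scatter added for legibility and a black bar at the median of the plotted genes. The 37 protocadherins plotted have a median of 2.43 and the 38 p53 targets 1.04, while the 49 mitosis genes have a median of -0.35 and the 72 ribosomal protein genes -0.02. The 10 called histone genes plotted stand apart from the other 37, which lie near 0.

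Targets of p53 differed from the lists above in that most called members were already higher in IMR5-75 in DMSO. Of 40 tested members, 32 rose in IMR5-75 and 2 in Be(2)-C. Of these 40, 23 were called as more positive in IMR5-75 and 0 as more positive in Be(2)-C, with a median of 1.04. Of the 23, 14 were higher and 5 lower in IMR5-75 in DMSO. Of all 40 tested members, 27 were higher and 7 lower there, so a higher DMSO level was not particular to the called members. CDKN1A, the cell cycle inhibitor p21, was at 94.4 and 105 CPM in IMR5-75 DMSO and at 686 and 596 CPM in IMR5-75 DAC. In Be(2)-C it was at 7.07 and 11 CPM in DMSO and at 9.38 and 10.4 CPM in DAC, so that the Be(2)-C libraries overlapped and the IMR5-75 libraries did not (difference 2.56 ± 0.25, adjusted p = 4.27e-07). FDXR, a mitochondrial reductase gene, rose from 52.7 and 56.1 CPM to 234 and 192 CPM in IMR5-75 and stayed between 7.35 and 8.71 CPM in Be(2)-C (1.92 ± 0.24, adjusted p = 8.91e-06). BTG2, which restrains cell division, rose in both lines, from 42.8 and 49.3 CPM to 171 and 167 CPM in IMR5-75 and from 31.2 and 32.5 CPM to 43.4 and 43.5 CPM in Be(2)-C (1.43 ± 0.16, adjusted p = 2.78e-06). FDXR, BTG2, BBC3, DDB2, MDM2 and TNFRSF10A are named after their values were seen. SPATA18, a gene of mitochondrial quality control, was not called between the lines in DMSO (7.74 and 8.83 CPM in IMR5-75, 6.43 and 6.43 CPM in Be(2)-C, adjusted p = 0.0851) and stood at 37.1 and 39.6 CPM in IMR5-75 DAC against 5.35 and 5 CPM in Be(2)-C DAC (2.52 ± 0.25, adjusted p = 4.69e-07).

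BBC3, which encodes the cell death protein PUMA, was lower in IMR5-75 in DMSO (6.04 and 6.06 CPM against 13.9 and 15.9 CPM in Be(2)-C) and reached 28.3 and 21.1 CPM in IMR5-75 DAC, where Be(2)-C had 17.4 and 25.2 CPM (1.52 ± 0.28, adjusted p = 0.00121). DDB2, a DNA repair gene, went from 4.42 and 3.7 CPM to 17.1 and 17.4 CPM in IMR5-75 and from 9.24 and 6.61 CPM to 8.14 and 6.95 CPM in Be(2)-C (2.15 ± 0.28, adjusted p = 1.87e-05). TNFRSF10A, a death receptor gene, had 0 and 0 CPM in IMR5-75 DMSO and 3.68 and 4.29 CPM in IMR5-75 DAC, and 0.247 to 0.551 CPM in Be(2)-C (adjusted p = 8.92e-05). The DAC libraries of the 2 lines thus overlapped for BBC3 and not for the other 2 genes. MDM2, the ubiquitin ligase that degrades p53, went from 279 and 212 CPM to 448 and 556 CPM in IMR5-75 and from 128 and 127 CPM to 155 and 126 CPM in Be(2)-C (0.89 ± 0.21, adjusted p = 0.0101), a call that ended without Be(2)-C DAC 2 (adjusted p = 0.079) or IMR5-75 DMSO 2 (adjusted p = 0.0781). RRM2B, a p53-induced ribonucleotide reductase subunit, went from 60 and 50.6 CPM to 135 and 165 CPM in IMR5-75 and lay between 29.6 and 34.8 CPM in Be(2)-C (1.48 ± 0.22, adjusted p = 8.76e-05). GADD45A, a stress gene, went from 50.3 and 54.7 CPM to 105 and 94.5 CPM in IMR5-75 and lay between 10.6 and 13.7 CPM in Be(2)-C (1.07 ± 0.20, adjusted p = 0.00134).

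Genes of germ cells were counted in 3 lists. In each list, members near 0 in both lines in DMSO passed the filter mainly through treated groups, so the counts that rose or were called are partly set by it. Over all tested genes, 19.9% rose in IMR5-75 and 3.73% in Be(2)-C. Of 62 cancer-testis genes in the table, which are silent in most adult tissues, 27 were tested, most of them near 0 in DMSO, so that they passed the filter mainly through treated groups and the count that rose is partly fixed by it. Of the 27 tested, 26 rose in IMR5-75 and 20 in Be(2)-C, and 2 were called as more positive in IMR5-75 (median 1.84, or 2.24 with groups under 3 counts set at 3 counts). PRAME, a cancer-testis gene, was the 1 member clearly present in Be(2)-C DMSO among those 2, at 23.7 and 24.1 CPM and then 29.8 and 27.6 CPM. In IMR5-75 it went from 0.442 and 0.0841 CPM to 3.97 and 4.76 CPM (3.67 ± 0.45, adjusted p = 8.18e-06). PASD1, the other member, was at 0.643 CPM or less in each Be(2)-C library and in IMR5-75 DMSO, and reached 14.4 and 16 CPM in IMR5-75 DAC (6.41 ± 1.23, adjusted p = 0.00192). Its call ended without Be(2)-C DMSO 2 (adjusted p = 0.438), and without IMR5-75 DMSO 1 no count was left in that group and the difference was at least 5.84. Germline and piRNA genes had 4 of 28 members more positive in IMR5-75 and 1 more positive in Be(2)-C (median 0.43, or 1.16 with that floor), 20 rose in IMR5-75 and 10 in Be(2)-C, and the count of 4 was 1 to 2 without Be(2)-C DMSO 2, IMR5-75 DMSO 1 or IMR5-75 DMSO 2. BOLL, a germ cell gene of the DAZ family of RNA-binding proteins, was at 0.926 CPM or less outside IMR5-75 DAC, where it had 2.48 and 3.12 CPM (adjusted p = 0.0202), and its call ended without Be(2)-C DMSO 2, Be(2)-C DAC 1, IMR5-75 DMSO 1 or IMR5-75 DMSO 2 (adjusted p up to 0.322). Meiotic chromosome genes had 2 and 1 of 18 members called in the 2 directions (median -0.01, or 0.28 with that floor), and 9 rose in IMR5-75 and 1 in Be(2)-C. SYCP2L was at 17 to 19.8 CPM in Be(2)-C and went from 0.221 and 0.168 CPM to 1.2 and 0.936 CPM in IMR5-75 (2.36 ± 0.56, adjusted p = 0.0104, lost without IMR5-75 DMSO 2 or IMR5-75 DAC 1). MSH5, a meiotic recombination gene, was at 0.958 CPM or less in each library, was called as more positive in Be(2)-C (adjusted p = 0.0255), and lost its call without any single library other than Be(2)-C DMSO 1 or IMR5-75 DAC 2.

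Genes with the more positive response in Be(2)-C were led by H19, an imprinted long non-coding RNA that is normally expressed from the maternal copy. H19 went from 2.18 and 1.47 CPM to 118 and 122 CPM in Be(2)-C and from 15.4 and 11.6 CPM to 51.2 and 40.9 CPM in IMR5-75 (difference -4.27 ± 0.28, adjusted p = 1.03e-09). It rose in both lines, and the order of the lines turned from IMR5-75 above Be(2)-C in DMSO to Be(2)-C above IMR5-75 in DAC. The imprinted genes had 3 of 32 members called in each direction and a median of 0.07, and the count toward IMR5-75 was 1 without IMR5-75 DMSO 2, IMR5-75 DAC 1 or IMR5-75 DAC 2. GRB10, an imprinted adaptor protein gene, went from 0.725 and 1.47 CPM to 2.47 and 5.93 CPM in Be(2)-C, against 38.7 and 38.9 CPM and then 32.5 and 27.6 CPM in IMR5-75 (-2.27 ± 0.45, adjusted p = 0.00217), and its adjusted p was 0.0501 without Be(2)-C DAC 2. PDGFRA, a growth factor receptor gene of mesenchymal cells, rose from 0.634 and 0.735 CPM to 3.95 and 4.08 CPM in Be(2)-C and fell from 139 and 144 CPM to 76.1 and 89.8 CPM in IMR5-75 (-3.30 ± 0.33, adjusted p = 5.66e-07). LDHA, which encodes the lactate dehydrogenase A subunit, rose from 36.7 and 38.8 CPM to 77.7 and 79.1 CPM in Be(2)-C and fell from 1238 and 1261 CPM to 503 and 475 CPM in IMR5-75 (-2.41 ± 0.15, adjusted p = 4.61e-10). In PDGFRA and LDHA the lines moved toward each other, and every IMR5-75 library remained above every Be(2)-C library.

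Several other genes in this direction were near 0 in Be(2)-C DMSO, rose there to a few CPM and were abundant in IMR5-75 throughout. TMPRSS15, which encodes the intestinal protease enteropeptidase, went from 0.725 and 0.643 CPM to 3.7 and 3.33 CPM in Be(2)-C and lay between 459 and 573 CPM in IMR5-75 (-2.49 ± 0.33, adjusted p = 2.71e-05). PKIB, which encodes an inhibitor of protein kinase A, went from 0.816 and 0.826 CPM to 2.88 and 4.26 CPM in Be(2)-C and fell from 332 and 337 CPM to 254 and 262 CPM in IMR5-75 (-2.47 ± 0.33, adjusted p = 2.1e-05). MFNG, a glycosyltransferase gene that acts on Notch, had 0.181 and 0 CPM in Be(2)-C DMSO and 0.987 and 1.11 CPM in Be(2)-C DAC, and fell from 95.8 and 124 CPM to 76.9 and 58.7 CPM in IMR5-75 (adjusted p = 0.00189, with no count left in Be(2)-C DMSO without Be(2)-C DMSO 1). These rises were of a few CPM and left the line difference in place. RAB34, a small GTPase gene, went from 0.363 and 0.0918 CPM to 1.81 and 1.95 CPM in Be(2)-C and lay between 72.8 and 95.5 CPM in IMR5-75 (-2.75 ± 0.56, adjusted p = 0.00321, and adjusted p = 0.068 without Be(2)-C DMSO 2). C1orf51 went from 0.453 and 0.0918 CPM to 0.987 and 1.2 CPM in Be(2)-C and fell from 15.3 and 17.6 CPM to 10.4 and 9.12 CPM in IMR5-75 (-2.70 ± 0.56, adjusted p = 0.00348). Its call ended without Be(2)-C DMSO 2 (adjusted p = 0.0567), and without Be(2)-C DMSO 1, which left 1 count in that group, its difference was -4.18. FSTL5, which encodes a follistatin-like protein, was the exception in level, going from 0.634 and 0.826 CPM to 5.43 and 4.54 CPM in Be(2)-C against 1.92 and 3.03 CPM and then 2.62 and 2.34 CPM in IMR5-75 (-2.74 ± 0.48, adjusted p = 0.000637).

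A few called genes were left with 1 count or none in 1 line after DAC. KRT19, a keratin gene of epithelia, rose from 5.53 and 3.58 CPM to 14.4 and 16.3 CPM in Be(2)-C and had 1.03 and 0.0841 CPM in IMR5-75 DMSO and 0.0708 and 0 CPM in IMR5-75 DAC (adjusted p = 0.00954). This call rested on IMR5-75 DMSO 1, as its adjusted p was 0.665 without that library. GABBR1, a GABA receptor subunit gene, had 0.811 and 0.252 CPM in IMR5-75 DMSO and 0 and 0 CPM in IMR5-75 DAC, against 6.61 to 9.13 CPM in Be(2)-C (adjusted p = 0.00452, and 0.0905 without IMR5-75 DMSO 1). XKR5 had 0.369 and 0.336 CPM and then 0 and 0 CPM in IMR5-75, against 3.24 to 5.6 CPM in Be(2)-C (adjusted p = 0.0449), and its call ended without any single library other than Be(2)-C DAC 2. NHLH2, a neuronal transcription factor gene, was called in the other direction, with 0.0906 and 0.367 CPM and then 0 and 0 CPM in Be(2)-C and a rise from 11.3 and 12.2 CPM to 34.3 and 38.4 CPM in IMR5-75 (adjusted p = 0.0153), and its call ended without Be(2)-C DMSO 2, Be(2)-C DAC 1 or Be(2)-C DAC 2 (adjusted p up to 0.32). The 4 calls in these genes thus depended on a few counts.

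Lists of growth and stress genes leaned toward Be(2)-C by smaller amounts. DNA replication genes fell in IMR5-75 for 52 of 52 members and in Be(2)-C for 29, and 2 were called as differing, both more positive in Be(2)-C (median -0.29). PRIM1, a primase subunit gene, fell from 118 and 107 CPM to 52.3 and 57.8 CPM in IMR5-75 and went from 63.6 and 58.9 CPM to 51.6 and 53.5 CPM in Be(2)-C (-0.81 ± 0.17, adjusted p = 0.00291). RPA1, which encodes a subunit of the single-strand DNA binding complex, had -0.67 ± 0.20 (adjusted p = 0.0434), and its call ended without any single library other than IMR5-75 DMSO 2. Mitosis genes fell in IMR5-75 for 46 of 49 members and in Be(2)-C for 20, and 4 were called as differing, all more positive in Be(2)-C (median -0.35), with 0 of the 49 having a positive difference. That count was 9 without IMR5-75 DAC 2 and 2 without any other single library except Be(2)-C DAC 2. CENPF, a kinetochore gene, fell from 1308 and 1339 CPM to 662 and 857 CPM in IMR5-75 and had 634 and 654 CPM and then 724 and 601 CPM in Be(2)-C (-0.84 ± 0.18, adjusted p = 0.00447). CCNB2, which encodes a mitotic cyclin, fell from 96.6 and 105 CPM to 54.8 and 56.2 CPM in IMR5-75 and had 161 and 147 CPM and then 137 and 145 CPM in Be(2)-C (-0.74 ± 0.15, adjusted p = 0.00257). In CENPF and PRIM1 the fall in IMR5-75 ended near the Be(2)-C level, and in CCNB2 below it.

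Genes of the amino acid and unfolded protein response, driven by the factor ATF4, had 8 of 39 members more positive in Be(2)-C and 2 more positive in IMR5-75, with a median of -0.30. The count of 8 was 2 to 5 without Be(2)-C DMSO 1, Be(2)-C DMSO 2, Be(2)-C DAC 2, IMR5-75 DMSO 1, IMR5-75 DMSO 2 or IMR5-75 DAC 2. SLC7A11, a cystine transporter gene, went from 26.2 and 35.4 CPM to 46.8 and 85.2 CPM in Be(2)-C and from 14.2 and 9.17 CPM to 4.25 and 7.64 CPM in IMR5-75 (-2.09 ± 0.39, adjusted p = 0.00136). INHBE, a hormone subunit gene, went from 3.35 and 4.04 CPM to 6.5 and 14.6 CPM in Be(2)-C and from 25.3 and 36.7 CPM to 17.8 and 17.5 CPM in IMR5-75 (-2.31 ± 0.38, adjusted p = 0.000299). In both genes Be(2)-C DAC 2 stood well above Be(2)-C DAC 1. MTHFD2, a mitochondrial folate enzyme gene, had -0.64 ± 0.17 (adjusted p = 0.0205), and its call ended without any single library other than Be(2)-C DAC 1 or IMR5-75 DAC 2. GDF15, a secreted stress factor that is also a p53 target, was called in the opposite direction, from 0.516 and 0.336 CPM to 12 and 8.11 CPM in IMR5-75 against 2.72 and 5.6 CPM and then 2.63 and 7.5 CPM in Be(2)-C (4.25 ± 0.69, adjusted p = 0.000263).

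The remaining lists had fewer called members. Mesenchymal-type genes had 10 of 43 members more positive in IMR5-75 and 3 more positive in Be(2)-C (median 0.22), and the count of 10 was 5 without Be(2)-C DMSO 1 and 6 without IMR5-75 DMSO 1. The count of 3 was 1 without Be(2)-C DMSO 1, Be(2)-C DMSO 2 or IMR5-75 DMSO 1. Of the 43 members, 22 were higher and 14 lower in IMR5-75 in DMSO, while 8 of the 10 were lower there and 0 higher. Of the mesenchymal-type markers, PRRX1 (110 and 71.2 CPM), YAP1 (53.9 and 45.4 CPM) and FN1 (175 and 143 CPM) were higher in IMR5-75 DMSO than in Be(2)-C DMSO. FOSL1 was lower there, and the response difference of none of these markers was called. TPM2, a tropomyosin gene, rose in both lines from like levels, from 3.54 and 4.88 CPM to 59.1 and 45.9 CPM in IMR5-75 and from 3.72 and 4.32 CPM to 14.5 and 11.9 CPM in Be(2)-C (1.93 ± 0.29, adjusted p = 0.000125). S100A6, a calcium-binding protein gene, went from 0.295 and 0 CPM to 3.82 and 4.29 CPM in IMR5-75 and lay between 77.1 and 87.8 CPM in Be(2)-C (4.63 ± 0.55, adjusted p = 5.38e-06, and at least 4.03 without IMR5-75 DMSO 1). VIM, the intermediate filament gene vimentin, went the other way, rising from 198 and 226 CPM to 328 and 334 CPM in Be(2)-C against 732 and 698 CPM and then 746 and 602 CPM in IMR5-75 (-0.73 ± 0.18, adjusted p = 0.012), and lost its call without Be(2)-C DMSO 1, IMR5-75 DMSO 1 or IMR5-75 DAC 2 (adjusted p up to 0.0963). EZH2-repressed neuroblastoma suppressors had 6 of 15 members more positive in IMR5-75 and 0 in Be(2)-C (median 0.52), with CLU, the chaperone gene clusterin, going from 16.3 and 10.2 CPM to 49.9 and 41.8 CPM in IMR5-75 against 166 to 197 CPM in Be(2)-C (1.95 ± 0.22, adjusted p = 3.6e-06). Genes reported methylated in neuroblastoma had 7 of 34 more positive in IMR5-75, all 7 lower there in DMSO, and 1 more positive in Be(2)-C (median 0.42). Of all 34, 15 were lower in IMR5-75 in DMSO. Interferon-stimulated genes had 4 of 38 and 0 of 38 (median 0.71), and 24 of the 38 rose in IMR5-75 and 4 in Be(2)-C. PARP14 of that list, an ADP-ribosyltransferase gene, went from 0.295 and 0.168 CPM to 3.26 and 3.43 CPM in IMR5-75 and from 4.98 and 5.6 CPM to 6.75 and 9.36 CPM in Be(2)-C (3.17 ± 0.49, adjusted p = 0.000154). LGALS3BP, a secreted glycoprotein gene, went from 12.4 and 14 CPM to 39.8 and 26.8 CPM in IMR5-75 against 256 to 295 CPM in Be(2)-C (1.21 ± 0.22, adjusted p = 0.000882).

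Cholesterol synthesis genes had 4 of 27 more positive in IMR5-75 and 0 in Be(2)-C (median 0.22), with STARD4, a sterol carrier gene, going from 39.6 and 41.1 CPM to 88.2 and 116 CPM in IMR5-75 against 153 to 201 CPM in Be(2)-C (adjusted p = 0.000217). TM7SF2, a sterol reductase gene, went from 4.79 and 8.66 CPM to 21.5 and 16.8 CPM in IMR5-75 against 15.1 to 18.2 CPM in Be(2)-C (adjusted p = 0.00281), and so reached the Be(2)-C range. NRF2 targets had 2 of 27 more positive in IMR5-75 and 1 in Be(2)-C (median -0.02). AKR1C3 and AKR1C1, aldo-keto reductase genes whose copies can exchange reads, rose in IMR5-75, AKR1C3 from 1.55 and 2.36 CPM to 16.1 and 18.2 CPM (3.17 ± 0.30, adjusted p = 2.51e-07) and AKR1C1 from 0 and 0 CPM to 1.13 and 1.25 CPM (adjusted p = 0.000145). Be(2)-C held 21.4 to 30.2 CPM of AKR1C3 and 21.5 to 28.1 CPM of AKR1C1. Glycolysis enzyme genes had 1 of 25 more positive in IMR5-75 and 2 in Be(2)-C (median -0.24), the latter LDHA and PFKFB3, a regulator of glycolysis, which fell from 73.3 and 82.3 CPM to 36.7 and 32.8 CPM in IMR5-75 and lay between 16.3 and 17.3 CPM in Be(2)-C (-1.19 ± 0.19, adjusted p = 0.000197). MYC and MYCN targets had 0 of 43 more positive in IMR5-75 and 2 in Be(2)-C (median -0.21). Without IMR5-75 DAC 2 these counts were 1 and 4, and without any other single library than Be(2)-C DAC 1 the count of 2 was 1. Antigen presentation genes had 1 of 17 and 0 of 17 (median 0.33), HOX genes 0 of 18 in either direction (median -0.32), ribosomal protein genes 0 of 72 in either direction (median -0.02) and housekeeping genes 0 and 1 of 22 (median -0.03). Of the marker lists, Schwann and glial genes had 2 of 15 more positive in IMR5-75 and 0 in Be(2)-C (median 0.73), epithelial genes 0 and 1 of 7 (median 0.54, or -1.36 with groups under 3 counts set at 3 counts) and haematopoietic genes 1 and 0 of 6 (median 0.60). GAP43, a growth cone gene, went from 1.25 and 1.77 CPM to 4.11 and 3.2 CPM in IMR5-75 against 254 to 319 CPM in Be(2)-C (adjusted p = 0.00217). NES, the intermediate filament gene nestin, was higher in IMR5-75 from the start and rose there from 635 and 624 CPM to 1119 and 1002 CPM, against 55.4 to 62.1 CPM in Be(2)-C (0.79 ± 0.16, adjusted p = 0.00389). Each count of 0 above is by edgeR, and the DESeq2 Wald test also called 0 members in each of these directions. At an unadjusted p under 0.05 by edgeR, these directions held 4 histone genes, 1 p53 target and 1 interferon-stimulated gene toward Be(2)-C, 1 HOX gene in each direction, and 1 MYC or MYCN target and 2 epithelial genes toward IMR5-75, and 0 members of the other lists. Some small counts given above or below for other lists also moved with single libraries. The DNA replication count of 2 toward Be(2)-C was 1 without Be(2)-C DMSO 1, Be(2)-C DMSO 2, Be(2)-C DAC 1 or IMR5-75 DMSO 1. Toward IMR5-75, the count of 2 was 1 for ATF4 genes without Be(2)-C DMSO 2 or Be(2)-C DAC 1 and for DNA methylation genes without Be(2)-C DMSO 1 or Be(2)-C DMSO 2, and for meiotic genes it was 0 without IMR5-75 DMSO 2 and 1 without any other single library except Be(2)-C DAC 1 or IMR5-75 DMSO 1. The antigen presentation count of 1 was 2 without IMR5-75 DMSO 1 or IMR5-75 DAC 1. A count of 1 toward Be(2)-C became 0 for DNA methylation genes without Be(2)-C DMSO 1, Be(2)-C DAC 1 or IMR5-75 DAC 1, for epithelial genes and for genes reported methylated in neuroblastoma without IMR5-75 DMSO 1, for housekeeping genes without any single library except Be(2)-C DAC 1, and for germline genes without any single library except Be(2)-C DAC 2. The haematopoietic count of 1 toward IMR5-75 became 0 without IMR5-75 DMSO 2 or IMR5-75 DAC 1.

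The main genes that take up, activate or are bound by DAC were not called in the response difference. DNMT1, the maintenance methyltransferase that decitabine traps, stood at 251 and 258 CPM and then 239 and 212 CPM in Be(2)-C and fell from 328 and 303 CPM to 242 and 220 CPM in IMR5-75, and its difference was not called (-0.27 ± 0.18, adjusted p = 0.445). The de novo methyltransferase genes DNMT3A (-0.34 ± 0.14, adjusted p = 0.2) and DNMT3B (-0.04 ± 0.20, adjusted p = 0.951) were not called either. Their levels did differ between the lines before DAC. In DMSO, IMR5-75 was higher for DNMT1 (0.31 log2, adjusted p = 0.0353 by edgeR), DNMT3A (0.40, adjusted p = 0.00186) and DNMT3B (1.21, adjusted p = 2.25e-07). In the EPZ-6438 libraries without DAC, DNMT3A was not called between the lines (-0.11, adjusted p = 0.381). DCK, the kinase that activates decitabine, was at 59.3 and 65.9 CPM in Be(2)-C DMSO and 53.2 and 45.5 CPM in IMR5-75 DMSO, a difference in DMSO that was not called (adjusted p = 0.0553), and its response difference was not called (-0.35 ± 0.22, adjusted p = 0.423). SLC29A1, a nucleoside transporter gene, was lower in IMR5-75 in DMSO (56.7 and 54.9 CPM against 103 and 92.7 CPM, adjusted p = 2.08e-05), as was SAMHD1, which hydrolyses deoxynucleotides (30.6 and 29 CPM against 52.7 and 51.4 CPM, adjusted p = 7.72e-06). Neither response difference was called (adjusted p = 0.785 and 0.92). With DAC added to EPZ-6438, the difference of DCK was called (-0.76 ± 0.22, adjusted p = 0.0299 by edgeR). Those of DNMT1, DNMT3A, DNMT3B, SLC29A1 and SAMHD1 were not called there. With DAC alone, DCK fell in IMR5-75 (-0.59, adjusted p = 0.00548) and was not called in Be(2)-C (-0.24, adjusted p = 0.369). CDA, the deaminase that inactivates decitabine, had 0.278 CPM or less in each library and was not tested. The lists these genes belong to had 2 of 20 and 1 of 20 called members for DNA methylation genes (median -0.15), and 2 of 21 and 0 of 21 for uptake and activation genes (median -0.04). TET1, which oxidises methylated cytosine, was at 35.8 and 40.3 CPM and then 49.9 and 42.5 CPM in Be(2)-C and fell from 42.9 and 44.8 CPM to 23.6 and 32.1 CPM in IMR5-75 (-0.94 ± 0.21, adjusted p = 0.00824), and lost its call without Be(2)-C DMSO 1, Be(2)-C DAC 1 or IMR5-75 DAC 1 (adjusted p up to 0.0663). ABCB1, a drug efflux pump gene, stood at 294 and 304 CPM and then 261 and 240 CPM in Be(2)-C and went from 1.4 and 1.18 CPM to 4.6 and 7.56 CPM in IMR5-75 (2.47 ± 0.32, adjusted p = 1.54e-05). MYCN, the amplified driver gene, was at 5282 and 5196 CPM in Be(2)-C DMSO and 1743 and 2000 CPM in IMR5-75 DMSO, and its response difference was not called (-0.17 ± 0.20, adjusted p = 0.715).

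The response difference was read a second time as DAC added to EPZ-6438, in 8 libraries that share none with the first. Of the 988 called genes, 954 (96.6%, exact binomial 95% interval 95.2 to 97.6, which covers counting error only and treats genes as independent, which they are not) had a difference of the same sign. The share with the same sign over all tested genes was not counted. Over all tested genes, the 2 readings had a Pearson correlation of 0.59, given as a description. In that contrast 1662 of the tested genes (10.4%) were called, 5.91% higher and 4.5% lower in IMR5-75. Of the 819 genes more positive in IMR5-75, 531 (64.8%) were called in the same direction there and 1 in the opposite direction. Of the 169 genes more positive in Be(2)-C, 75 (44.4%) were called in the same direction and 5 in the opposite direction. ZNF300 had 5.04 ± 0.40 (adjusted p = 2.29e-08), TDRD1 was called (adjusted p = 2.75e-11) and CDKN1A had 1.76 ± 0.25 (adjusted p = 5.05e-05). H19 had -3.21 ± 0.29 (adjusted p = 1.34e-07) and LDHA -1.93 ± 0.15 (adjusted p = 2.08e-08). Clustered protocadherins had 40 of 55 members called as more positive in IMR5-75, p53 targets 20 of 40 and histone genes 19 of 63, with 11 histone genes called in the other direction.

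Some groups of genes read differently when DAC came on top of EPZ-6438. Genes of the ATF4 list had 15 of 39 members more positive in IMR5-75 and 0 more positive in Be(2)-C, against 2 and 8 with DAC alone. INHBE had 3.18 (adjusted p = 3.33e-05 by edgeR), SLC7A11 1.73 (adjusted p = 0.0096) and GRB10, of the imprinted list, 1.65 (adjusted p = 0.0134), where each was negative with DAC alone. From EPZ-6438 to DAC with EPZ-6438, Be(2)-C means went from 16.3 to 1.45 CPM (INHBE), 85.5 to 10.9 CPM (SLC7A11) and 5.45 to 1.58 CPM (GRB10). In IMR5-75 they went from 20.7 to 16.7, 12.2 to 5.16 and 34.7 to 31 CPM. The positive values of these genes thus came with larger falls in Be(2)-C, not with rises in IMR5-75. Mitosis genes had 42 of 49 members more positive in Be(2)-C, against 4 with DAC alone, and DNA replication genes 22 of 52, against 2. The difference between the 2 readings was not tested, and they differ in the presence of EPZ-6438 as well as in the libraries. PASD1 was not called on top of EPZ-6438 (adjusted p = 0.95). Its mean there went from 0.0393 to 17.6 CPM in IMR5-75 and from 0 to 0.424 CPM in Be(2)-C.

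**Figure D5:**
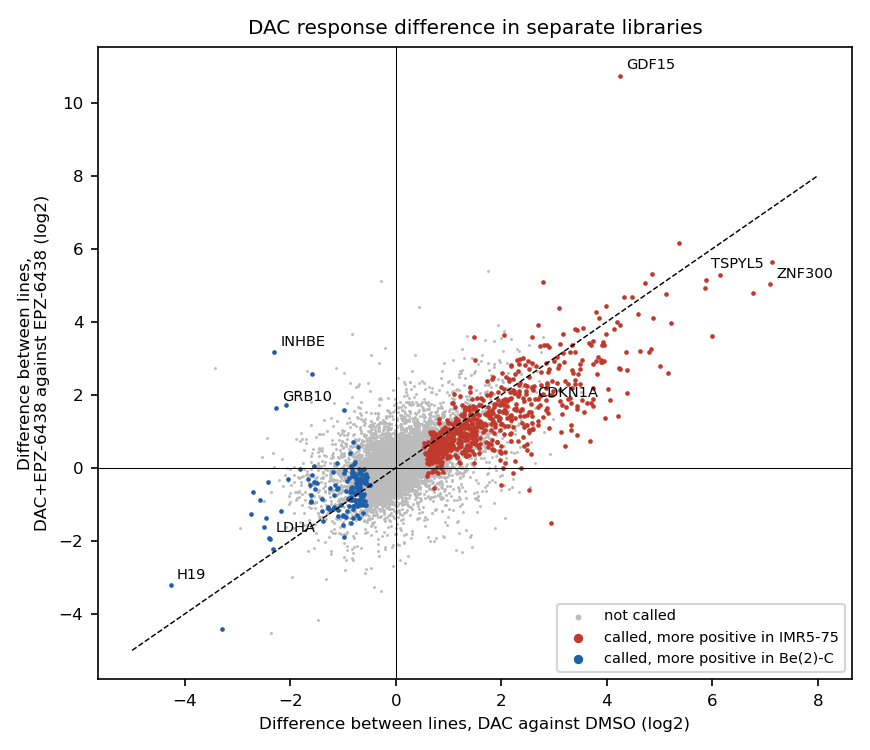
Response difference between the lines with DAC against DMSO (x axis, log2) and with DAC and EPZ-6438 against EPZ-6438 (y axis, log2) for 14096 genes with more than 3 counts in all 8 groups, with called genes of the first contrast in red (667 genes, more positive in IMR5-75) and blue (159 genes, more positive in Be(2)-C) and a dashed line of equality. Most red points lie above 0 and most blue points below 0 on the y axis, while INHBE and GRB10 are blue points above 0.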

How the data were processed

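RNA of IMR5-75 and Be(2)-C was depleted of ribosomal RNA and made into libraries with a directional kit, with single-end reads, per the labels' protocols. The deposited table holds raw counts per gene symbol for each library, which the authors made. The submitters' processing notes name TopHat2 2.0.5, HTSeq 0.5.3p9, DESeq2 and the build hg19. Which annotation and strand setting they counted with is not given in the sources used here, which leaves overlapping, antisense and near-identical genes uncertain.

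The fit used edgeR 4.0.16 in R 4.3.3 (filterByExpr, TMM, quasi-likelihood test of the 8 group means over 16 libraries, 8 residual degrees of freedom, common biological variation 9.88%, Benjamini-Hochberg adjustment over 15967 genes). CPM use TMM-scaled totals, and 3 counts correspond to 0.206 to 0.315 CPM. Of 23459 genes, 1191 had 0 counts in every library. No pair of replicates agreed within sampling noise. Named genes were the largest differences in each direction among called genes with a mean of at least 2 CPM over the 8 DMSO and DAC libraries and separated pairs, apart for genes with more than 3 counts in each group and genes without (the latter ranked by mean DAC CPM in the line with the more positive response). To these came genes called in opposite directions in the 2 lines, the called members of each list with the smallest adjusted p, and genes of DAC uptake and action. The genes and the 29 lists were chosen with earlier results of these data known. Alternatives were DESeq2 1.42.0 size factors and Wald test, no filter on low counts, the replicate block, the 8 DMSO and DAC libraries alone, and each library left out. The classes of genes by DMSO level without IMR5-75 DMSO 1 were added after seeing the data. The fit was tested on simulated data of 15967 genes, in which 65, 65 and 64 tested genes held a 1.5-fold, 2-fold and 4-fold difference. Of the genes called there, 4 (4.08%) were false calls. The simulated spread was taken from the fit itself, so this share does not measure false calls in the real data. Promoters are from RefSeq (GRCh38.p14) and were matched by symbol for 65 of 79 named genes. Results for some genes are not reported here.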

Additional observations from a re-analysis of the deposited data

Results flagged for a closer look

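The results below stand out because the DAC response itself was tested between the lines, as the difference of the 2 changes, and passed in 988 genes. Values are response differences in log2, positive where IMR5-75 responded more positively. For genes near 0 in IMR5-75 DMSO and expressed in Be(2)-C they were 7.09 for ZNF300, 7.14 for TSPYL5, 6.77 for HIST1H3J, 6.14 for TMEM185B, 6.0 for HIST1H4I, 5.88 for STOM, 5.87 for ZNF559 and 5.16 for HIST1H2BM. Germ cell genes had 6.41 for PASD1, 3.67 for PRAME and 2.36 for SYCP2L. Targets of p53 had 2.56 for CDKN1A, 2.52 for SPATA18, 4.25 for GDF15, 2.15 for DDB2, 1.92 for FDXR, 1.52 for BBC3, 1.48 for RRM2B, 1.43 for BTG2, 1.07 for GADD45A and 0.89 for MDM2. Of genes of neurons, noradrenergic cells and their adhesion, the values were 3.53 for DBH, 2.88 for SCG2, 2.73 for PRPH, 2.06 for CHGA, 3.99 for PCDHB15, 1.53 for GAP43 and 0.79 for NES. Mesenchymal-type genes and EZH2-repressed suppressors had 4.63 for S100A6, 1.93 for TPM2 and 1.95 for CLU. Genes of metabolism, drug efflux and interferon response had 3.17 for AKR1C3, 2.47 for ABCB1, 1.41 for TM7SF2, 1.36 for STARD4, 3.17 for PARP14 and 1.21 for LGALS3BP.

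The largest differences toward Be(2)-C were -4.27 for H19, -3.30 for PDGFRA, -2.75 for RAB34, -2.74 for FSTL5, -2.70 for C1orf51, -2.49 for TMPRSS15, -2.47 for PKIB and -2.41 for LDHA. Stress, imprinted, metabolic and filament genes had -2.31 for INHBE, -2.27 for GRB10, -2.09 for SLC7A11, -1.19 for PFKFB3, -0.64 for MTHFD2, -0.73 for VIM and -0.94 for TET1. Genes of the cell cycle had -0.84 for CENPF, -0.81 for PRIM1, -0.74 for CCNB2 and -0.67 for RPA1. Genes with 3 or fewer counts in a group are given by the adjusted p of edgeR's quasi-likelihood test in place of a difference. Those more positive in IMR5-75 had adjusted p-values of 2.91e-11 for HIST1H1B, 4.37e-11 for HIST1H1D, 1.81e-10 for IMPACT, 1.81e-10 for TDRD1, 1.81e-10 for PCDHB2, 1.81e-10 for CHFR, 8.92e-05 for TNFRSF10A, 0.000145 for AKR1C1, 0.0153 for NHLH2 and 0.0202 for BOLL. Those more positive in Be(2)-C had adjusted p-values of 0.00189 for MFNG, 0.00452 for GABBR1, 0.00954 for KRT19, 0.0255 for MSH5 and 0.0449 for XKR5. No explanation of these differences was tested.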

How the results depend on the processing

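With DESeq2's size factors 1004 genes were called, with the DESeq2 Wald test 1009, with only the DMSO and DAC libraries 991 and without the filter on low counts 1249, and of the 988 genes called in the report 984, 921, 912 and 957 were among them. The median difference of all genes stayed within 0.03 of 0 under each of these. Without the filter, 94.6% of the called genes had the same sign when DAC was added to EPZ-6438. With single libraries left out, 667 to 1019 genes were called, 595 to 810 of them more positive in IMR5-75 and 59 to 209 more positive in Be(2)-C. The response ran against the DMSO difference for 551 to 760 genes and with it for 42 to 107, and 96.1 to 98.1% kept the sign when DAC was added to EPZ-6438. Between 654 and 831 of the 988 genes kept their call. A group left with 1 library is assumed to vary like the others.

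The replicate numbers were checked for pairing, and the deviations of same-numbered libraries from their group means correlated between -0.175 and 0.092. The samples thus share only a number. A fit with the replicate block called 911 genes, 904 of them among the 988, with 84.7% more positive in IMR5-75 in place of 82.9%. Mitosis genes more positive in Be(2)-C numbered 2 under the block, 8 without the filter and 7 with only the DMSO and DAC libraries. The 1 germline gene more positive in Be(2)-C was lost under the block, the DESeq2 Wald test and the fit of 8 libraries.

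Genes that were not called changed sign in some settings. With single libraries left out, DNMT3B ranged from -0.18 to 0.14 (0.05 without Be(2)-C DAC 1 and 0.03 without IMR5-75 DAC 2), SLC29A1 from -0.29 to 0.05 and SAMHD1 from -0.01 to 0.15. The cause of these changes was not tested. In simulated data at this depth, 10.8% of genes with a 1.5-fold difference were called, 47.7% with 2-fold and 87.5% with 4-fold, so small differences between the lines can go uncalled.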
